A study of Mus musculus with 27 samples.

Results

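The purinergic receptor genes P2ry12, P2ry13, P2ry6, P2rx4 and P2rx7, the lipid receptor gene Gpr34 and the ectonucleotidase gene Entpd1 were followed across 27 libraries of sorted mouse microglia. They are 7 of the 56691 genes in the count table, found by matching its Ensembl identifiers to symbols in the mouse GENCODE annotation, and all 7 are among the 17573 genes that passed a filter on low counts. The study asked how gut microbiota bear on microglia after intracerebral hemorrhage (ICH), bleeding into the brain that is modelled by injecting collagenase, an enzyme that weakens vessel walls. Wild-type germ-free mice (GF), mice given an antibiotic cocktail (ABX) and specific pathogen-free mice (SPF) were used, and the cells were isolated near the hematoma by flow cytometry. Each of these 3 conditions has collagenase groups at day 3 and day 7 and a sham group that received PBS and is labelled day 7, with 3 libraries in each of the 9 groups. Sham therefore differs from ICH day 3 in day as well as in injury. Strain, age and the antibiotics are not given in the sources used here, nor whether the libraries of a group come from separate animals, so p-values measure only the spread between these samples, which may be technical. The genes were selected on earlier results for ICH day 3 against sham in these same libraries, so that comparison is described without a test.

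Damaged cells release ATP, and microglia carry receptors for ATP, for its breakdown products and for lipids of injured membranes. P2Y12, the product of P2ry12, binds ADP, couples to inhibitory G proteins and guides microglial processes towards a lesion, and P2Y13 is a second ADP receptor of the same subfamily. P2Y6 responds to UDP and is linked to phagocytosis, P2X4 and P2X7 are ATP-gated cation channels of which P2X7 drives NLRP3 inflammasome activation, and Gpr34 responds to lysophosphatidylserine. CD39, the product of Entpd1, breaks ATP and ADP down to AMP on the cell surface. P2ry12, P2ry13 and Gpr34 are widely used as markers of resting, homeostatic microglia.

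P2ry12 (ENSMUSG00000036353) and P2ry13 (ENSMUSG00000036362) are neighbours on the minus strand of mouse chromosome 3 (GRCm38), at chr3:59216272-59262871 and chr3:59207892-59210882, both within the span of Med12l on the other strand. The sequences before their starts are shown because both genes moved together across the libraries and the segments can be read against each other. These are the 250 bases before each RefSeq start on GRCm38.p6, minus strand, at chr3:59262986-59263235 for P2ry12 and chr3:59210883-59211132 for P2ry13, with the letters AGGAAG, the core to which the myeloid factor PU.1 is known to bind, in capitals.
P2ry12: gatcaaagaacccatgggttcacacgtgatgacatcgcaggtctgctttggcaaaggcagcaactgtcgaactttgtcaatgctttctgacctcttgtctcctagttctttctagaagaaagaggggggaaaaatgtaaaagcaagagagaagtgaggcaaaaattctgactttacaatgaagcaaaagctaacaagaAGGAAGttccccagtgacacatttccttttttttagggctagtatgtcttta
P2ry13: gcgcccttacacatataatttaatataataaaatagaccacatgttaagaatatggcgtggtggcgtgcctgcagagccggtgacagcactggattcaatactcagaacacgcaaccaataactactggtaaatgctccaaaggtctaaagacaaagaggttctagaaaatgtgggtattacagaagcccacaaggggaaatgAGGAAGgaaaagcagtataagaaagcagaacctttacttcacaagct
The motif was chosen after the sequences were seen and was searched on both strands as AGGAAG and CTTCCT, with no other motif overlapping it. It occurred once in each segment, on the strand of the gene, with its first base at position -52 for P2ry12 and -47 for P2ry13, counted back from the RefSeq start. Of 32851 promoter segments of the same length in the RefSeq table, 9686 (29.5%) held it, so a match is common and is given as a description of the letters. The RefSeq table matched 5 of the 7 genes, and Gpr34 and P2ry6 were not matched.

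The other 5 genes lie on 4 chromosomes. Gpr34 is at chrX:13632089-13640858 within Cask on the other strand, P2ry6 at chr7:100937630-100974649, Entpd1 at chr19:40612366-40741602, and P2rx4 and P2rx7 are neighbours at chr5:122707544-122729738 and chr5:122643911-122691432. Which strand was counted is not given in the sources used here, so reads of P2ry12, P2ry13 and Gpr34 cannot be told apart from those of their host genes where exons overlap. The shared exon bases are 9 for P2ry12 and 0 for P2ry13 and Gpr34. Group means were at most 88.0 CPM (counts scaled to a common library size by TMM) for Med12l and 258.7 CPM for Cask, far under those of the receptors inside them. The transcripts of the 7 genes differ widely in base composition. By the longest annotated transcript, Gpr34 had 37.1% GC and P2ry12 38.6%, both in bin 1 when the 1649 abundant genes (mean of at least 100 CPM) are divided by GC content into 5 bins of 329 or 330 genes. P2ry13 had 44.7% and Entpd1 44.7%, in bin 2, and P2rx4 48.3%, in bin 3, although its longest coding transcript has 52.96%. P2rx7 had 50.1%, in bin 4, and P2ry6 55.9%, in bin 5, the richest in GC.

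Libraries held 41664864 to 79090595 counts and 9185 to 18408 detected genes. All 3 GF ICH day 7 libraries, ABX ICH day 7 replicates 1 and 2 and GF sham replicates 1 and 2 fell under 12000 detected genes. The log2 level of bin 5 minus that of bin 1, a measure of how far a library leans to GC-rich transcripts, averaged -2.13 at day 7 in GF mice, -0.79 in ABX mice and 0.26 in SPF mice, against -0.04 to 1.28 in the sham and day 3 groups. All 8 microglia markers were detected in every group, with a summed level of 19620 to 87060 CPM. That sum was lower at day 3 than in sham without overlap in SPF mice (25120 to 30140 against 41270 to 49130 CPM). The same held in ABX mice (19620 to 32200 against 40690 to 48100 CPM). In GF mice the ranges overlapped (25250 to 44160 against 37650 to 87060 CPM). At day 7 the sum was 28040 to 40730 CPM in SPF, 45790 to 84030 CPM in ABX and 30310 to 50020 CPM in GF mice. The 10 neutrophil markers summed to 920 to 3573 CPM in GF ICH day 7 with Mmp9 at 0, against 43.0 to 895 CPM in all other groups. The 10 monocyte markers summed to 775 to 2214 CPM in GF ICH day 7 with F10 at 0 and to 17.1 to 1028 CPM in ABX ICH day 7, against at most 271 CPM elsewhere. Platelets also carry P2Y12, and 10 platelet markers summed to at most 102 CPM in any library, with 6 of them at 0 in GF ICH day 7. The part of detection, base composition and these other cells in the results below was not tested, except where values with an offset for GC content are given.

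Per kilobase of the longest transcript, P2ry12 was among the most abundant genes of these cells, at a median of 2569 CPM per kb and rank 23 of 16862 tested genes. Gpr34 ranked 49th with 1003 CPM per kb and P2ry13 75th with 639 CPM per kb. P2ry6 followed at 153 CPM per kb, Entpd1 at 99.5, P2rx4 at 27.3 and P2rx7 at 23.5 CPM per kb, the last at rank 2181. Counts of P2ry12 ran from 81318 to 935362 per library, so error from counting reads is small for it. Reads of amplified RNA are not counts of molecules. The spread between libraries is separate, with a common biological coefficient of variation of 1.537 over the tested genes in edgeR. That value is not the spread of P2ry12, whose largest group SD was 6182 CPM, beside a mean of 11380 CPM, in ABX ICH day 7. For P2ry6, P2rx4 and P2rx7 the lowest library held 25, 22 and 7 counts.

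**Figure D1:**
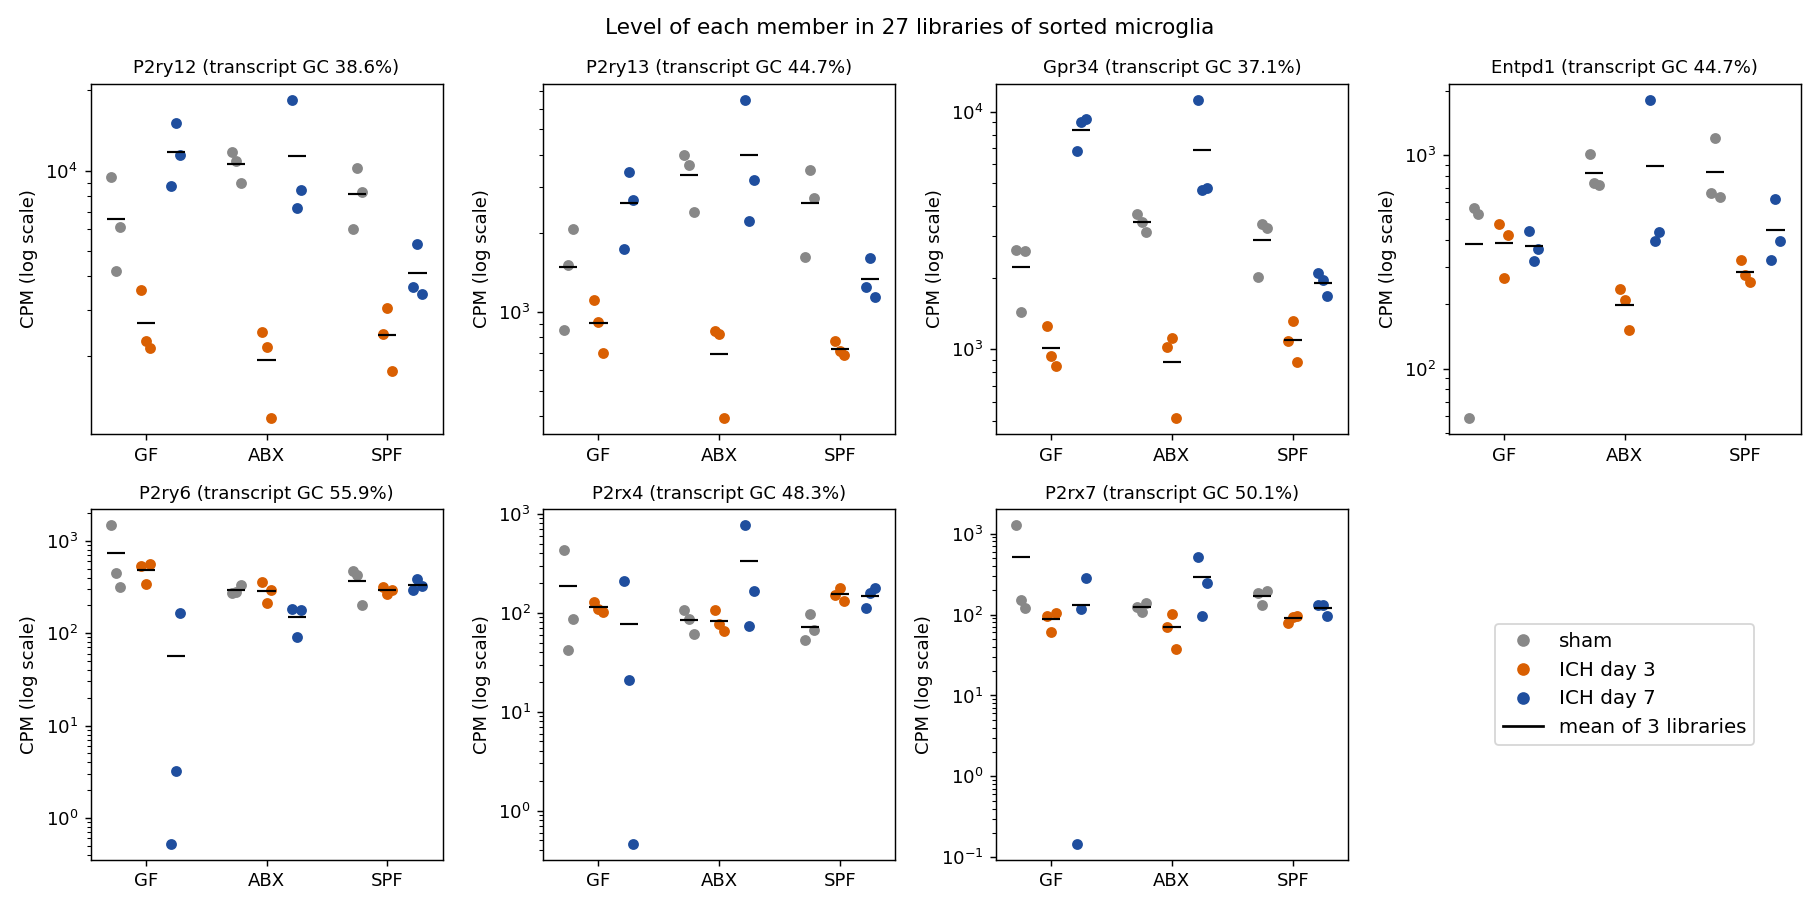
Level of each gene (CPM, log scale) in 27 libraries, by condition (GF, ABX, SPF) and, within it, sham, ICH day 3 and ICH day 7. Points are libraries and bars are means of 3. The day 3 libraries of P2ry12 and Gpr34 lie below all sham and day 7 libraries of their condition, and single GF ICH day 7 libraries of P2ry6, P2rx4 and P2rx7 drop to 0.526, 0.463 and 0.147 CPM.

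P2ry12 had the same low point at day 3 in each condition. In GF mice its level was 9422, 4186 and 6150 CPM in sham, 3554, 2283 and 2142 CPM at ICH day 3, and 8721, 15048 and 11458 CPM at ICH day 7. In ABX mice it was 11776, 10884 and 8983 CPM in sham, 2480, 2163 and 1173 CPM at day 3, and 18484, 7226 and 8431 CPM at day 7. SPF libraries held 6023, 10213 and 8319 CPM in sham, 2428, 3037 and 1765 CPM at day 3, and 3643, 5270 and 3435 CPM at day 7. No day 3 library reached the lowest sham or day 7 library of its condition. At day 7 the SPF libraries lay below all 3 SPF sham libraries, whereas the GF and ABX libraries overlapped with theirs. By group mean the order was GF day 7, ABX day 7, ABX sham, SPF sham, GF sham, SPF day 7, GF day 3, SPF day 3 and ABX day 3, and each neighbour in it overlapped with the next.

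P2ry13, whose transcript is richer in GC, followed P2ry12 closely. Libraries of GF mice held 854, 1517 and 2074 CPM in sham, 1108, 917 and 695 CPM at day 3, and 1742, 3423 and 2680 CPM at day 7. Those of ABX mice held 3996, 3648 and 2417 CPM in sham, 845, 827 and 393 CPM at day 3, and 6501, 2231 and 3194 CPM at day 7. In SPF mice the values were 1624, 3490 and 2727 CPM in sham, 777, 709 and 684 CPM at day 3, and 1245, 1616 and 1139 CPM at day 7. Day 3 was below sham in every library of ABX and SPF mice, while GF sham replicate 1 lay inside the GF day 3 range. All day 3 libraries were below all day 7 libraries. In the order of group means the 3 day 3 groups came last and did not overlap with SPF day 7, the group next above them.

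Gpr34, the transcript lowest in GC of the 7, reached its highest levels at day 7 in GF and ABX mice. In GF mice its level was 2625, 1442 and 2592 CPM in sham, 1255, 937 and 848 CPM at day 3, and 6835, 9049 and 9302 CPM at day 7. ABX libraries held 3701, 3440 and 3113 CPM in sham, 1025, 1119 and 515 CPM at day 3, and 11230, 4684 and 4772 CPM at day 7. In SPF mice it was 2010, 3381 and 3242 CPM in sham, 1081, 1315 and 888 CPM at day 3, and 2094, 1951 and 1684 CPM at day 7. The GF and ABX day 7 groups overlapped with each other and lay above every other library, and the 3 day 3 groups overlapped with one another and lay below every other library. SPF day 7 overlapped with SPF sham.

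At ICH day 3 P2ry12, P2ry13 and Gpr34 had lower means than in sham, the pattern known when the genes were proposed. The log2 difference between ICH day 3 and sham was -1.31 in GF, -2.44 in ABX and -1.76 in SPF mice for P2ry12, and -0.71, -2.28 and -1.85 in the same order for P2ry13. For Gpr34 it was -1.13, -1.95 and -1.39, and for Entpd1 0.012 in GF, where it was not lower, -2.06 in ABX and -1.55 in SPF mice. At day 3 the libraries of 3 genes in GF, 5 in ABX and 5 in SPF mice lay wholly below sham, where 2.98%, 10.1% and 6.98% of all tested genes did. P2rx7 was among them in each condition, and P2rx4 in SPF mice lay wholly above sham, as 9.18% of genes did. edgeR called 0 of the 7 genes in GF, 3 in ABX and 0 in SPF mice and 3 in the average of the conditions, beside 0.00569%, 0.125%, 0.102% and 1.3% of all genes, and nothing is read from these counts. By direction, 0.0228% of genes were called lower and 0.102% higher in ABX mice, 0.0114% lower and 0.091% higher in SPF mice, and 0.267% lower and 1.04% higher in the average. GC content correlated with the day 3 difference over the 1649 abundant genes. The Spearman correlation was 0.17 in GF, 0.33 in ABX and 0.30 in SPF mice. In GF mice P2ry12 and Gpr34 lay between the quartiles of bin 1, -1.34 and -0.10. P2ry13 lay there between those of bin 2, -1.14 and 0.16. In ABX and SPF mice all 3 lay below the lower quartiles of their bins, which were -0.66 to -0.58. The part of base composition was not tested. In bulk libraries, fewer cells carrying a transcript and less of it per cell cannot be told apart.

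By day 7 the levels had turned upward again. P2ry12, P2ry13 and Gpr34 were higher at day 7 than at day 3 in each condition, and the rise passed the test in GF and ABX mice but not in SPF mice. The day 3 libraries are those of the comparison with sham above, so a low value there enters both. The genes were selected with those low values known, so the p-values for the rise are no independent support. In GF mice Gpr34 rose by 3.05 ± 0.36 log2 units (SE, edgeR adjusted p = 3.23e-05), with 8395 ± 1357 CPM at day 7 and 1013 ± 214 CPM at day 3 (SD, n = 3 each). P2ry12 rose by 2.14 ± 0.37 (edgeR adjusted p = 0.000909) and P2ry13 by 1.53 ± 0.40 (edgeR adjusted p = 0.0142), the last not called without GF ICH day 3 replicate 3 or GF ICH day 7 replicate 2 (edgeR adjusted p = 0.0652 at most). These are 3 of the 7 genes called higher, where 1.83% of all genes were called higher, 13.4% lower and 15.3% in all, and 3 of 7 with no overlap, where 8.5% of all genes had none in that direction.

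In ABX mice Gpr34 rose by 2.96 ± 0.355 log2 units from day 3 (edgeR adjusted p = 0.000138), P2ry12 by 2.55 ± 0.37 (edgeR adjusted p = 0.00104) and P2ry13 by 2.53 ± 0.42 (edgeR adjusted p = 0.00318). P2ry13 was not called without ABX ICH day 3 replicate 3 (edgeR adjusted p = 0.0548). Of all tested genes 0.563% were called higher, 0.165% lower and 0.728% in all in this comparison, against 3 of these 7, and 6.29% lay wholly above day 3, against 4 of 7. The high ABX day 7 library, replicate 1, has the lowest TMM factor of all, 0.476, which raises its CPM. With the 7 libraries under 12000 detected genes left out, ABX day 7 is replicate 3 alone, assumed to vary like the other groups, and the rise was 2.18 for Gpr34, 1.87 for P2ry12 and 1.97 for P2ry13 (edgeR adjusted p = 0.00169, 0.006 and 0.00585).

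In SPF mice the 3 genes lay wholly above day 3 at day 7, as 6.23% of all genes did, by 0.77 ± 0.36 for P2ry12, 0.88 ± 0.40 for P2ry13 and 0.80 ± 0.33 for Gpr34, and none passed (edgeR adjusted p = 0.971 for each). edgeR called 0 genes (0%) there, with 719 at an unadjusted p under 0.05, and DESeq2 called 662 genes but none of the 7. Averaged over the conditions the rise was 2.27 ± 0.20 for Gpr34 (edgeR adjusted p = 3.44e-07), 1.82 ± 0.21 for P2ry12 (edgeR adjusted p = 1.55e-05) and 1.65 ± 0.23 for P2ry13 (edgeR adjusted p = 0.000115), 3 of 7 genes beside 3.34% of all genes called higher, 16.8% lower and 20.1% in all. All 3 were called in each of the 27 fits that left out 1 library.

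Against sham at day 7, Gpr34 passed the test as higher in GF mice, and none of the 7 genes passed in ABX or SPF mice. P2ry6 passed as lower in GF mice (-3.72 ± 1.10, edgeR adjusted p = 0.0253) and is described with its own levels. Whether the responses differ between conditions is taken up further below. In GF mice Gpr34 was 1.92 ± 0.34 log2 units above sham (edgeR adjusted p = 0.000896), at 8395 ± 1357 CPM at day 7 and 2220 ± 674 CPM in sham (SD, n = 3 each), and all day 7 libraries lay above all sham libraries. P2ry12 stood 0.83 ± 0.36 and P2ry13 0.82 ± 0.40 above sham without passing (edgeR adjusted p = 0.112 and 0.153). Gpr34 was 1 of 7 genes called higher in this comparison, beside 1.7% of all genes called higher, 12.7% lower and 14.4% in all, and 1 of 7 wholly above sham, beside 5.34%. In ABX mice Gpr34 was 1.01 ± 0.33 above sham with no overlap, as 8.08% of all genes were, and did not pass (edgeR adjusted p = 0.144). P2ry12 and P2ry13 differed there by 0.11 ± 0.35 and 0.25 ± 0.39 (edgeR adjusted p = 0.872 and 0.699), and 0 of the 7 genes were called in edgeR beside 0.945% of all genes (0.734% higher, 0.211% lower). In SPF mice P2ry12, at -0.99 ± 0.36, P2ry13, at -0.97 ± 0.40, and Entpd1, at -0.89 ± 0.60, lay wholly below sham with P2rx7, 4 of 7 genes beside 4.62% of all genes. None passed (edgeR adjusted p from 0.897 to 1), where 0.0797% of genes did. Averaged over the conditions, Gpr34 was 0.78 ± 0.19 above sham (edgeR adjusted p = 0.00842), 1 of 7 genes beside 3.72% of all genes called higher, 16.5% lower and 20.2% in all, and DESeq2 did not call it (0.56, adjusted p = 0.142). These comparisons share their sham libraries with the day 3 comparison above.

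GF and ABX mice were then set against SPF mice at day 7. P2ry12 and Gpr34 were higher in GF mice, and Gpr34 in ABX mice. GF ICH day 7 exceeded SPF ICH day 7 by 2.14 ± 0.34 log2 units for Gpr34 (edgeR adjusted p = 0.00105), with 8395 ± 1357 CPM in GF and 1910 ± 208 CPM in SPF mice (SD, n = 3 each). P2ry12 exceeded it by 1.51 ± 0.36 (edgeR adjusted p = 0.0104), with 11740 ± 3173 CPM in GF and 4116 ± 1005 CPM in SPF mice. P2ry12 was not called with DESeq2 (adjusted p = 0.0627). P2ry13 was 0.97 ± 0.40 higher without passing (edgeR adjusted p = 0.101). Thus 2 of 7 genes were called higher, beside 1.08% of all genes called higher, 11.8% lower and 12.9% in all, and 3 of 7 lay wholly above SPF, beside 7.19%.

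ABX ICH day 7 exceeded SPF ICH day 7 by 1.85 ± 0.34 for Gpr34 (edgeR adjusted p = 0.0403), 1 of 7 genes called higher, beside 0.074% of all genes called higher, 0.0114% lower and 0.0854% in all. That call is fragile, since it held in only 8 of the 27 fits that each left out 1 library and ended without the 7 libraries under 12000 detected genes (1.08, edgeR adjusted p = 0.078). P2ry12 was 1.47 ± 0.36 and P2ry13 1.58 ± 0.40 higher in ABX mice without passing (edgeR adjusted p = 0.0943 and 0.102), although these 3 genes lay wholly above SPF, as 6.38% of all genes did.

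The response to ICH at day 7 relative to sham was itself compared between conditions. For Gpr34 the response was 2.51 ± 0.47 log2 units larger in GF than in SPF mice (edgeR adjusted p = 0.00373), a call made in each of the 27 fits that left out 1 library. For P2ry12 it was 1.83 ± 0.50 larger (edgeR adjusted p = 0.0315), but this call ended in 8 of 27 fits, without any single one of 2 GF ICH day 7, 2 GF sham, 2 SPF ICH day 7 or 2 SPF sham libraries (edgeR adjusted p = 0.0958 at most), and with DESeq2 (adjusted p = 0.242). P2ry13 did not pass (1.79 ± 0.56, edgeR adjusted p = 0.0531). In this comparison edgeR called 0.285% of all genes higher, 6.76% lower and 7.04% in all. Between ABX and SPF mice the response did not differ past the threshold for any of the 7 genes (0 called in edgeR, as for 0% of all genes, with 2236 of all at an unadjusted p under 0.05 and 1935 called by DESeq2). Gpr34 stood at 1.60 ± 0.47 there (edgeR adjusted p = 0.369).

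Beside these day 7 differences stands a trend with GC content. Over the 1649 abundant genes, GC content and log2 fold change had a Spearman correlation of -0.63 for GF against SPF mice at day 7, -0.73 for GF day 7 against day 3, -0.52 for ABX day 7 against day 3 and -0.39 for ABX against SPF mice at day 7. It is a correlation across genes, which are not independent replicates. The 330 abundant genes lowest in GC content were themselves higher at day 7 in GF mice than in SPF mice, with a median log2 difference of 1.63 and quartiles of 1.13 and 2.00. P2ry12, at 1.51, lay inside that range, and Gpr34, at 2.14, above it, and both have less GC than the median of that bin, 40.41%. P2ry13, at 0.97, lay between the quartiles of its own bin, 0.48 and 1.60, while Entpd1, at -0.26, lay below it. In ABX against SPF mice at day 7 all 3 receptor genes lay between the quartiles of their bins, which were 0.93 and 1.89 for P2ry12 and Gpr34 and 0.67 and 1.68 for P2ry13.

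The rise from day 3 to day 7 compared differently with genes of like GC content in ABX and in GF mice. In ABX mice P2ry12 (2.55), Gpr34 (2.96) and P2ry13 (2.53) lay above the upper quartiles of their bins, 2.23 for P2ry12 and Gpr34 and 2.04 for P2ry13. In GF mice Gpr34 (3.05) lay above the range of 1.57 to 2.63, while P2ry12 (2.14) and P2ry13 (1.53) lay inside theirs, the range of P2ry13 being 0.82 to 1.91. The genes were selected with low day 3 values in these libraries known, and those values enter the rise. Genes of the bins were not so selected, so these positions are a description and nothing is read from them.

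**Figure D2:**
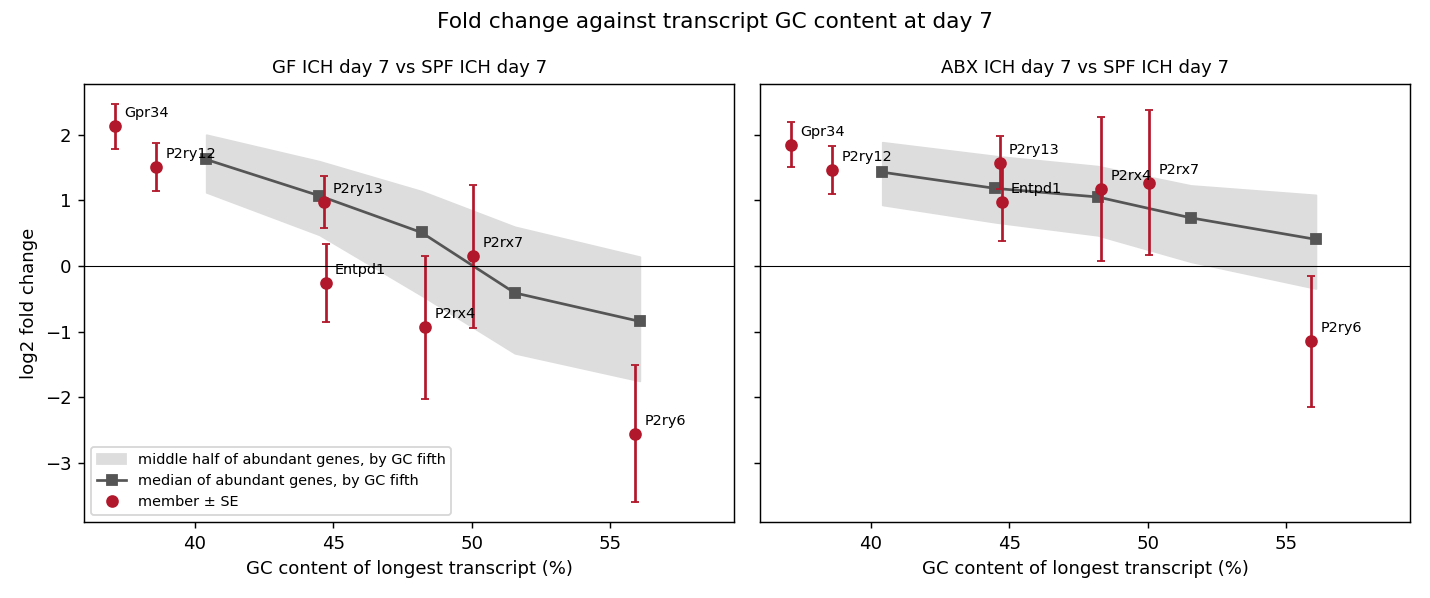
Log2 fold change at day 7, GF against SPF (left) and ABX against SPF (right), plotted against GC content of the longest transcript (%). Red points are the 7 genes with SE, squares the median and the grey band the quartiles of 1649 abundant genes in 5 bins of GC content; on the left the medians are 1.63 in bin 1 and -0.85 in bin 5, with Gpr34 at 2.14 and P2ry6 at -2.56.

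With an offset for GC content in every library, most day 7 calls ended. In GF mice the difference between day 7 and day 3 became 0.62 for Gpr34, -0.17 for P2ry12 and 0.26 for P2ry13, and none was called (edgeR adjusted p = 0.2, 0.796 and 0.67). Against GF sham, Gpr34 became -0.0698 (edgeR adjusted p = 0.944), P2ry12 -1.06 and P2ry13 -0.46 (edgeR adjusted p = 0.062 and 0.409). In the average of the conditions against sham, Gpr34 became -0.10 (edgeR adjusted p = 0.857), and P2ry12, at -0.02 without the offset, was called below sham at -0.82 (edgeR adjusted p = 0.0139). Against SPF mice at day 7, Gpr34 in GF mice became 0.27 and P2ry12 -0.30 (edgeR adjusted p = 0.622 and 0.627), and the differences in response became 0.37 and -0.19 (edgeR adjusted p = 0.716 and 0.943). In these GF comparisons the offset turned the correlation with GC content positive, to between 0.23 and 0.28, and the part of that in the ended calls was not tested.

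In ABX mice 2 of the 3 calls for day 7 against day 3 remained. There the offset left 1.81 for Gpr34 and 2.11 for P2ry13, both called (edgeR adjusted p = 0.0217 and 0.0219), and 1.62 for P2ry12, which was not (edgeR adjusted p = 0.0503), with a remaining correlation of 0.0686. In the average over conditions, day 7 stayed above day 3 by 1.04 for Gpr34, 1.04 for P2ry13 and 0.71 for P2ry12 (edgeR adjusted p = 0.0022, 0.00691 and 0.032). The genes were selected with low day 3 values in these libraries known, so these remaining calls are a description only. ABX mice no longer differed from SPF mice at day 7 past the threshold for Gpr34 (0.96, edgeR adjusted p = 0.211). In SPF mice, where the correlation with GC content was -0.29 without the offset and 0.0421 with it, the day 7 minus day 3 values were 0.69 for Gpr34, 0.67 for P2ry12 and 0.73 for P2ry13.

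**Figure D3:**
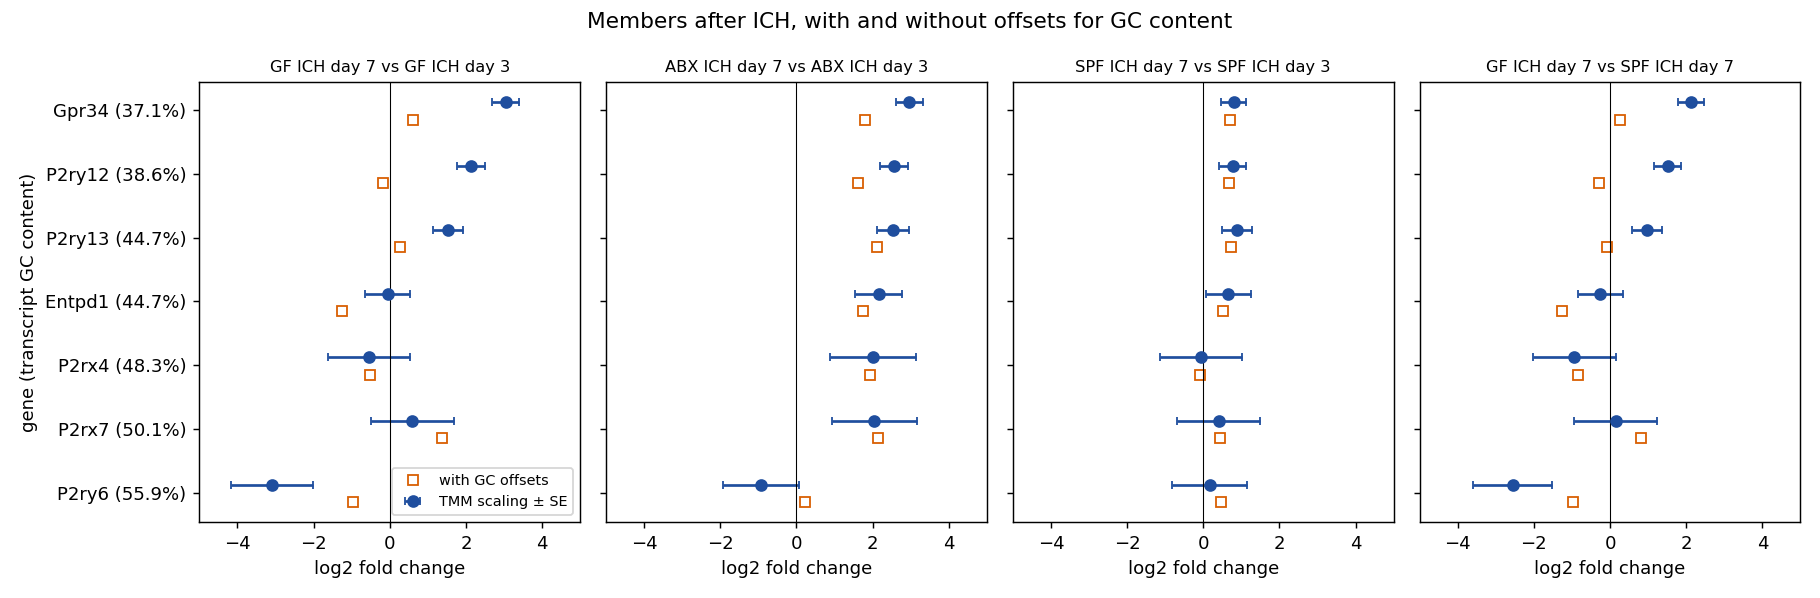
Log2 fold change of the 7 genes in 4 comparisons, ordered by GC content of the transcript, with TMM scaling (filled, ± SE) and with GC offsets (open). In GF ICH day 7 against day 3, Gpr34 moves to 0.62 with the offsets, against 3.05 without, and P2ry12 to -0.17, against 2.14; in ABX mice Gpr34 moves to 1.81, against 2.96.

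Ratios of counts within a library do not depend on the scaling between libraries, and Gpr34 and P2ry12 are close in GC content (37.1% and 38.6%). This ratio was chosen after the values were seen and is given without a test. Gpr34 made up 0.279 to 0.421 counts per count of P2ry12 in GF sham, 0.353 to 0.410 at GF day 3 and 0.601 to 0.812 at GF day 7. In ABX mice it made up 0.314 to 0.346, 0.413 to 0.517 and 0.566 to 0.648 over the same stages. In SPF mice it made up 0.331 to 0.390, 0.433 to 0.503 and 0.370 to 0.575. Gpr34 thus stood higher relative to P2ry12 at day 7 than in sham in every library of GF and ABX mice, with an overlap in SPF mice. At day 3 the ratio already lay wholly above sham in ABX and SPF mice, while the GF ranges overlapped. The ratio of P2ry13 to P2ry12 was 0.200 to 0.234 in GF day 7 libraries, and 0.233 to 0.402 in the other groups apart from 1 GF sham library at 0.0906.

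**Figure D4:**
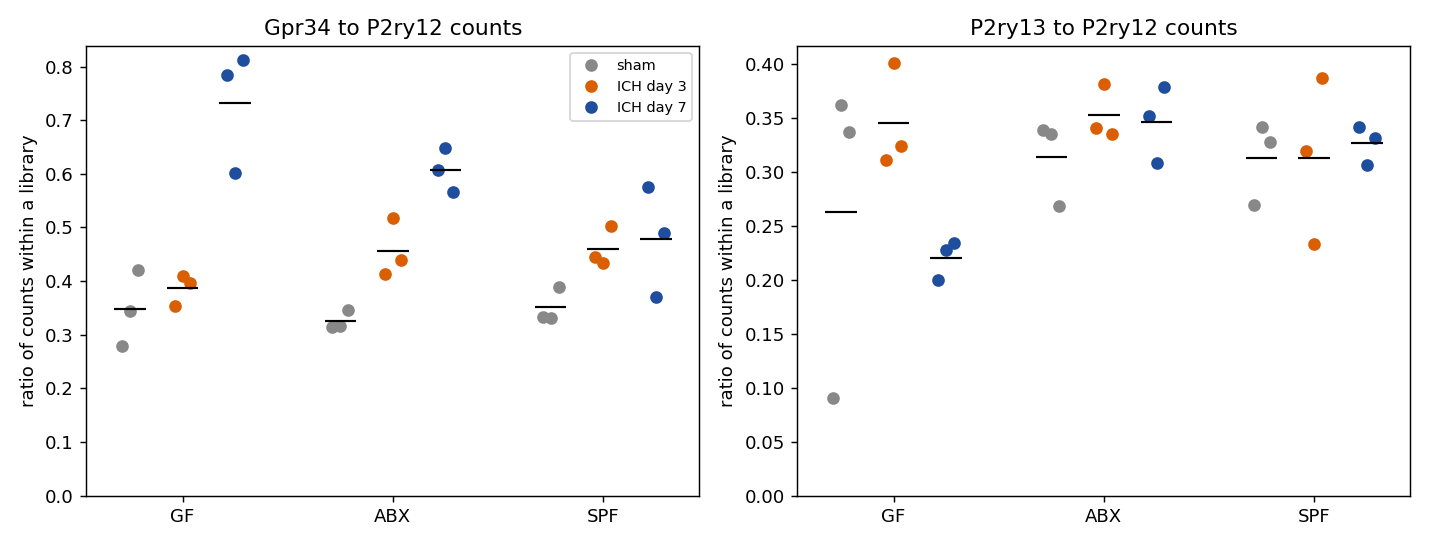
Ratio of Gpr34 to P2ry12 counts (left) and of P2ry13 to P2ry12 counts (right) within each library, by condition and stage; bars are means of 3 libraries. On the left the GF day 7 libraries, 0.601 to 0.812, and the ABX day 7 libraries, 0.566 to 0.648, lie above every sham and day 3 library.

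Entpd1 encodes the enzyme that removes the ligands of P2Y12 and P2X7. Its level in GF mice was 58.7, 565 and 529 CPM in sham, 477, 265 and 420.1 CPM at day 3, and 441, 319 and 361 CPM at day 7. In ABX mice it was 1009.7, 743 and 722 CPM in sham, 235, 209.8 and 151 CPM at day 3, and 1817, 396 and 437 CPM at day 7. SPF libraries held 660.4, 1195 and 638 CPM in sham, 323, 273 and 255 CPM at day 3, and 323, 624 and 396 CPM at day 7. The GF groups overlapped at all 3 stages, and the lowest GF library, sham replicate 1, is 1 of the 7 with few detected genes. In ABX mice all day 7 libraries exceeded day 3, by 2.15 ± 0.62 log2 units, without passing (edgeR adjusted p = 0.0971, DESeq2 adjusted p = 0.00909). With ABX day 7 reduced to replicate 3 the difference was 0.89 (edgeR adjusted p = 0.224). In none of the other comparisons tested did edgeR call Entpd1, and in GF against SPF mice at day 7 it differed by -0.26 ± 0.59 (edgeR adjusted p = 0.818).

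P2ry6, the transcript richest in GC, was lowest in GF mice at day 7. Libraries of GF mice held 1470, 448 and 315 CPM in sham, 533, 344 and 565 CPM at day 3, and 0.526, 3.25 and 165 CPM at day 7. ABX libraries held 273, 277 and 336 CPM in sham, 356, 212 and 292 CPM at day 3, and 184, 89.8 and 176 CPM at day 7. In SPF mice the level was 466, 429 and 199.7 CPM in sham, 319.5, 269 and 297 CPM at day 3, and 293, 383 and 321 CPM at day 7. Both GF and ABX day 7 libraries lay wholly below their sham and day 3 libraries and below SPF day 7, as 11.6% (GF) and 22.4% (ABX) of all genes did against sham, 32.6% and 18.1% against day 3, and 24.4% and 18.5% against SPF mice. In GF mice P2ry6 fell by 3.72 ± 1.10 log2 units relative to sham (edgeR adjusted p = 0.0253), where 12.7% of all genes were called lower, and stood 3.09 ± 1.07 below day 3 without passing (edgeR adjusted p = 0.0518). The value rests on single libraries, since it was -8.62 without GF ICH day 7 replicate 3, and the call ended without GF ICH day 7 replicate 2 or GF sham replicate 1 (edgeR adjusted p = 0.0958 at most). With the GC offset it was -1.73 (edgeR adjusted p = 0.216). In that comparison P2ry6 lay below the lower quartile of the genes in bin 5, -2.73. In ABX and SPF mice P2ry6 was called in no comparison.

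The ATP-gated channels P2rx4 and P2rx7 were the least abundant of the 7 genes by median level. P2rx4 in GF mice had 427, 42 and 87.2 CPM in sham, 129.5, 108 and 103 CPM at day 3, and 211, 21.0 and 0.463 CPM at day 7. In ABX mice it had 108, 86.8 and 60.4 CPM in sham, 106, 77.4 and 65.7 CPM at day 3, and 766, 72.7 and 165 CPM at day 7. SPF libraries had 53.2, 96.8 and 66.3 CPM in sham, 153, 178 and 132 CPM at day 3, and 111, 158 and 176 CPM at day 7. SPF day 7 libraries thus lay wholly above SPF sham, as 5.94% of all genes did, by 1.04 ± 1.09 log2 units without passing (edgeR adjusted p = 1). The GF and ABX groups of P2rx4 overlapped across all stages.

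P2rx7 in GF mice had 1265, 152 and 120 CPM in sham, 95.7, 60.2 and 105 CPM at day 3, and 0.147, 116 and 279 CPM at day 7. In ABX mice it had 125, 109 and 137 CPM in sham, 69.3, 102 and 37.0 CPM at day 3, and 517, 97.0 and 248 CPM at day 7. SPF libraries had 183, 132 and 196 CPM in sham, 79.7, 92.7 and 96.6 CPM at day 3, and 130.03, 130.7 and 95.95 CPM at day 7. The 2 channels did not drop out together, since P2rx7 was near 0 in GF day 7 replicate 1, P2ry6 in replicates 1 and 2 and P2rx4 in replicate 3. The high GF sham library, replicate 1, was also the highest for P2ry6 and among GF sham for P2rx4. Its TMM factor was 0.5175, which raises its CPM, and its 9 border-associated macrophage markers summed to 1168 CPM, with Lyve1 at 0, against at most 345 CPM in any other library. Their part in these high values was not tested. Neither channel was called by edgeR in any comparison tested, although single settings gave calls. P2rx7 in ABX mice at day 7 against day 3 was called without the libraries under 12000 detected genes (1.58, edgeR adjusted p = 0.0292), and in GF mice at day 7 against sham by DESeq2 (-2.66, adjusted p = 0.0499). Without GF ICH day 7 replicate 1, P2rx4 was called lower in GF mice at day 7 against sham (-4.11, edgeR adjusted p = 0.0381) and in the difference of that response from SPF mice (-5.15, edgeR adjusted p = 0.0489).

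In sham mice and at day 3, no difference of GF or ABX from SPF mice was detectable for these genes at this number of libraries. In sham mice edgeR called 0 of the 7 genes in GF and 0 in ABX against SPF mice, beside 0.00569% and 0% of all genes, and at day 3 again 0 and 0, beside 0% and 0%. At an unadjusted p under 0.05, 1093 (GF) and 712 (ABX) of all tested genes differed from SPF in sham and 608 and 860 at day 3, and DESeq2 called 876, 576, 571 and 761 genes, with none of the 7 among them. The smallest unadjusted p among the 7 was that of P2ry13 in GF against SPF sham, 0.0499, at -0.82 ± 0.40. P2ry12 differed from SPF in sham by -0.31 ± 0.35 in GF and 0.37 ± 0.35 in ABX mice, and Gpr34 by -0.37 ± 0.33 and 0.25 ± 0.33 (SE). A few genes did not overlap: Entpd1 in GF sham lay below SPF sham (5.09% of all genes did), P2ry6 at GF day 3 above and P2rx4 below SPF day 3 (8.22% and 5.44%), and P2rx4 and Entpd1 at ABX day 3 below it (3.77%). The response at day 3 relative to sham differed between GF and SPF or ABX and SPF mice for 0 and 0 of the 7 genes in edgeR, with 999 and 980 of all genes at an unadjusted p under 0.05 and 494 and 673 called by DESeq2.

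Across all 27 libraries some of the 7 genes varied together. Values are Pearson correlations of log2 CPM that share library, depth and base composition. P2ry12 correlated with Gpr34 at 0.94 and with P2ry13 at 0.92, and P2ry13 with Gpr34 at 0.87. Entpd1 correlated with P2ry13 at 0.75 and P2ry12 at 0.51. P2ry6 ran opposite to Gpr34, at -0.52, and its correlation of 0.72 with P2rx7 had a Spearman value of 0.05. For P2rx7 the reading depended on the measure. Its Pearson values were 0.18 with P2ry12, 0.18 with P2ry13 and 0.03 with Gpr34, whereas its Spearman values were 0.63, 0.57 and 0.56. Among 7402 other genes with a mean of at least 10 CPM, those most like P2ry12 included Serinc3 (0.92), Rgs2, a regulator of G protein signalling (0.92), Rnase4 (0.91) and Sft2d1 (0.90). Those most like Gpr34 were the calmodulin gene Calm2 (0.97), Tmem59 (0.95), the tetraspanin gene Cd53 (0.95), Lair1 (0.94) and Laptm4a (0.93). The genes named here for P2ry12 and Gpr34 have transcripts with at most 49.35% GC. Genes most like the other members included Hpgd (0.90), Rgs2 (0.86) and Gm12166 (0.85) for P2ry13, Sdha (0.95) and Scamp2 (0.94) for P2ry6, whose Spearman values were 0.12 and 0.74, and Ubl3 (0.84), Crlf3 (0.79) and Hacd3 (0.79) for Entpd1. For the channels they were Pea15a (0.93), Metap2 (0.91) and Cmtm3 (0.91) for P2rx4 and Tmem206 (0.95), Pts (0.95) and Sgce (0.94) for P2rx7. Their Spearman values were lower, at 0.55, 0.59 and 0.42 for the P2rx4 genes and 0.69, 0.69 and 0.82 for the P2rx7 genes.

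Other genes of nucleotide signalling were mostly scarce in these cells. Of 6 other P2Y receptor genes 4 were tested and of 5 other P2X genes 2, and none was called in GF or ABX mice at day 7 against day 3 or in GF against SPF mice at day 7. Among adenosine receptors, Adora3 was the abundant one, at 137 ± 28.1 CPM in GF, 166 ± 59.7 CPM in ABX and 72.4 ± 15.1 CPM in SPF mice at day 7 (SD, n = 3 each), and it was not called in these comparisons. Of 5 tested genes for clearing adenosine, at day 7 GF mice had 2 lower than SPF mice and none higher, beside 11.8% of all genes lower and 1.08% higher. Slc29a3, a lysosomal nucleoside transporter with 50.7% GC, stood at 0.754 ± 0.797 CPM in GF and 162 ± 89.7 CPM in SPF mice (edgeR adjusted p = 0.00092). Of 4 tested genes for nucleotide release, 2 were lower and none higher, beside the same shares.

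Most signalling partners of P2Y12 were not called. Of 11 tested, none was higher and 2 lower in GF against SPF mice at day 7, beside 1.08% of all genes higher and 11.8% lower. Their median log2 difference was -1.08, beside -1.56 over all 17573 tested genes, of which only 1649 were abundant. Over those abundant genes the medians of the GC bins ran from 1.63 in bin 1 to -0.85 in bin 5. Pik3cg, the catalytic subunit of the PI3 kinase that G protein-coupled receptors activate, stood at 0.872 ± 0.622 CPM in GF and 50.8 ± 29.5 CPM in SPF mice (edgeR adjusted p = 0.00614). At day 7 against day 3 in GF mice, Gnai3, an inhibitory G protein subunit, rose to 449 ± 243 CPM, against 53.9 ± 18.9 CPM at day 3, and the small GTPase gene Rap1a to 522 ± 143 CPM, against 67.6 ± 4.96 CPM (edgeR adjusted p = 0.0393 and 0.0285), and 2 genes fell, beside 1.83% of all genes higher and 13.4% lower. Both that rose are low in GC content (41.7% and 38.9%). Of 8 inflammasome partners of P2X7, 2 rose and 2 fell in GF mice at day 7 against sham, beside 1.7% of all genes higher and 12.7% lower, with Casp1, the caspase that matures IL-1β, at 329 ± 184 CPM at day 7 and 41.1 ± 35.6 CPM in sham (edgeR adjusted p = 0.0207). Il1b stood at 119.8 ± 69.7 CPM at day 7 and 0.363 ± 0.192 CPM in sham (edgeR adjusted p = 0.0164), beside the neutrophil and monocyte markers that were also highest in these libraries. Of 6 tested genes of lysophosphatidylserine metabolism and reception, GF mice at day 7 had 2 below SPF mice, beside 11.8% of all genes. One of them was Abhd12, the lipase that degrades the Gpr34 ligand, with 55.0% GC, at 175 ± 99.7 CPM in GF and 676 ± 155 CPM in SPF mice (edgeR adjusted p = 0.00644).

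Other homeostatic microglia genes were examined beside P2ry12 and Gpr34. Of 20 such genes, all outside the 7, 1 was higher and 6 were lower in GF mice at day 7 relative to SPF mice. Of all genes 1.08% were higher and 11.8% lower. The median log2 difference of the 20 was -0.97, beside -1.56 over all 17573 tested genes, of which only 1649 were abundant. Over those abundant genes the medians of the GC bins ran from 1.63 in bin 1 to -0.85 in bin 5. Hpgds, a prostaglandin D synthase with 41.7% GC, was the higher one, at 1511 ± 154 CPM in GF and 668 ± 105 CPM in SPF mice (edgeR adjusted p = 0.0339). Cx3cr1, the fractalkine receptor with 50.3% GC, was at 510.5 ± 313 CPM in GF and 3283 ± 1304 CPM in SPF mice (edgeR adjusted p = 0.0016). Csf1r, the receptor for the survival factor CSF1 with 54.5% GC, was at 131 ± 114 CPM in GF and 1282 ± 736 CPM in SPF mice (edgeR adjusted p = 0.0177). In ABX mice at day 7 against day 3, 3 of the 20 rose and none fell, beside 0.563% of all genes higher and 0.165% lower. Siglech and Cst3 were among them, with 45.6% and 57.2% GC. Cst3, the protease inhibitor cystatin C, stood at 31670 ± 11570 CPM at day 7 and 8874 ± 1498 CPM at day 3 (edgeR adjusted p = 0.000898).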

How the data were processed

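RNA of sorted microglia was amplified with SMART-Seq v4 and sequenced as paired reads, per the labels' protocols. Per the submitters' processing notes, tools included StringTie 1.3.4d, HISAT2 2.0.4, cutadapt 1.9 and edgeR, with the mm10 build. The annotation release, strand setting and counting of mates are not given in the sources used here. The authors deposited 1 table of raw counts per gene, which was used as deposited. Gene symbols, positions and GC content came from GENCODE on GRCm38 (52073 of 56691 identifiers matched), and promoter sequences from RefSeq. Totals of 41664864 to 79090595 counts per library leave little error from counting reads for abundant genes. This does not cover amplification or the spread between libraries.

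Counts were fitted in R 4.3.3 with edgeR 4.0.16 (filterByExpr, TMM, robust quasi-likelihood test) to 9 group means over all 27 libraries, and p-values were adjusted by Benjamini-Hochberg over 17573 tested genes in each of 22 comparisons, with a threshold of 0.05. The tested genes hold 99.94% of all counts. Alternatives were DESeq2 1.42.0, limma 3.58.1 (voom with quality weights), DESeq2 size factors, no low-count filter, a minimum mean of 100 CPM, a replicate block, offsets for GC content (a spline with 6 degrees of freedom in each library), leaving out each library, and leaving out the 7 libraries under 12000 detected genes. Fits were tested on simulated data. All 7 genes are named, with up to 4 genes of smallest adjusted p from each other list and the genes most correlated with each member. Other genes named (Adora3, Hpgds, Csf1r, Siglech and those under other observations) were chosen after their values were seen. Some genes that the rule would name are not reported here. The members and lists were chosen with earlier results of these data known. Replicate numbers are not stated to pair the samples and were not used as pairs in the main fit. No replicate pair held identical counts.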

Additional observations from a re-analysis of the deposited data

Results flagged for a closer look

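The response to ICH at day 7 relative to sham differed between GF and SPF mice by a test of the difference itself for 2 of the 7 genes. For Gpr34 the difference was 2.51 ± 0.47 log2 units (SE, edgeR adjusted p = 0.00373), with a response of 1.92 in GF and -0.59 in SPF mice. For P2ry12 it was 1.83 ± 0.50 (edgeR adjusted p = 0.0315), with responses of 0.83 and -0.99. With the GC offsets the differences were 0.37 and -0.19 and neither was called. Base composition, few detected genes and higher neutrophil and monocyte markers all moved with the GF day 7 libraries, and beyond the offsets their part was not tested.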

How the results depend on the processing

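Offsets for GC content changed the sign of 5 values that had been called, beside others that had not: Gpr34 in GF day 7 against sham (-0.0698) and in the average of day 7 against sham (-0.10), and P2ry12 in GF day 7 against day 3 (-0.17), in GF against SPF mice at day 7 (-0.30) and in the GF minus SPF difference in response (-0.19). They left 0 of the 7 genes called in GF day 7 against sham, GF day 7 against day 3, GF or ABX against SPF at day 7 and the difference in response, where 2, 3, 2, 1 and 2 were called. For ABX against SPF at day 7, 0 were called with DESeq2 size factors, without the low-count filter, with the replicate block or without the libraries of few detected genes, and 3 with DESeq2. Size factors left 1 call in GF against SPF at day 7 and 1 in the difference in response. Day 3 against sham, on which the genes were selected, is no test of them, and its counts describe the settings only. In SPF mice it gave 0 calls in edgeR, 2 with DESeq2, 4 with voom, 1 with the replicate block, 3 over genes of at least 100 CPM and 4 without the libraries of few genes. Day 7 against sham gave 1 in SPF mice over genes of at least 100 CPM and 2 in the average with voom, and the offsets there called P2ry12 (-0.82, edgeR adjusted p = 0.0139) in place of Gpr34. The cause was not tested.

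Leaving out 1 library at a time gave 0 to 3 calls for day 3 against sham in SPF mice, 1 to 3 in ABX mice and 3 to 4 in the average, again as a description only. For day 7 against sham it gave 1 to 3 in GF mice and 1 to 2 in the average, and for day 7 against day 3, 2 to 4 in ABX and in GF mice and 3 to 4 in the average. At day 7 it gave 0 to 3 for ABX and 2 to 3 for GF against SPF mice, and 1 to 4 for the difference in response. Same-numbered samples did not deviate together (mean correlation -0.0069 over 108 pairs), and the replicate block kept the direction and call of 152 of 154 results. Size factors shifted the median of all genes by up to -0.53 (GF day 7 against sham). They turned the genes called higher and lower in ABX day 7 against sham to 52 and 38, against 129 and 37 with TMM, in ABX day 7 against day 3 to 36 and 28, against 99 and 29, and in SPF day 3 against sham to 9 and 0, against 16 and 2. Counts of called genes over the comparisons ran from 0 to 3558 in edgeR and from 494 to 6932 in DESeq2. GF day 7 has no value without the libraries of few genes. Levels near 0 in single libraries limit P2ry6, P2rx4 and P2rx7.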

Other observations

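Cask, the host gene of Gpr34 on the other strand, had means of 78.6 CPM in GF, 258.7 CPM in ABX and 21.7 CPM in SPF mice at day 7, against 16.6, 10.1 and 9.07 CPM at day 3 in the same order, and 18.6, 54.7 and 57.3 CPM in sham. Averaged over conditions it rose by 2.73 log2 units at day 7 relative to day 3 (edgeR adjusted p = 0.00511). Nt5e, which encodes CD73, the enzyme that turns AMP made by CD39 into adenosine, averaged 30.3 CPM in GF, 0.249 CPM in ABX and 0.005 CPM in SPF mice at day 7 with an SD of 52.4 CPM in the GF group, and was not called between GF and SPF mice. Kcnk13, the gene of the potassium channel THIK-1, averaged 175 CPM in GF, 35.7 CPM in ABX and 78.1 CPM in SPF mice at day 7. Neither Kcnk13 nor Nt5e was called by edgeR in any comparison. These genes were named after their values were seen.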
